A study of Mus musculus with 6 samples.

Results

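The colony stimulating factor (CSF) ligands and receptors comprised 7 genes of the 33000 in the count table. Members were chosen by symbol, namely the ligands Csf1 and Il34 and the receptor genes Csf1r, Csf2ra, Csf2rb, Csf2rb2 and Csf3r. Each symbol matched 1 row, and all 7 genes passed the filter on low counts. Their mRNA was measured with the TruSeq protocol in the frontal cortex of 3 WT (wild-type) mice and of 3 mice homozygous for GFAP-IL6. All 6 mice were 3 months old and carried the strain label C57BL/6. The GFAP-IL6 mouse has a transgene in which the promoter of Gfap drives the inflammatory cytokine IL6 in astrocytes, a model used for neuroinflammation. Only this age was measured. Each library came from 1 mouse, so replicates are animals.

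CSFs are secreted proteins that control the survival, division and differentiation of myeloid cells. Csf1 and IL-34 bind the same receptor tyrosine kinase, encoded by Csf1r, and microglia, the resident macrophages of the brain, depend on this receptor to survive. GM-CSF (encoded by Csf2) is instead bound by a specific alpha chain, encoded by Csf2ra, which pairs with the common beta chain encoded by Csf2rb, shared with the receptors for IL-3 and IL-5. Mice carry a close copy of that beta chain gene, Csf2rb2, whose product serves IL-3. Csf3r encodes the receptor for G-CSF (encoded by Csf3), best known for driving neutrophil production.

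The libraries held between 7559524 and 16877001 counts, and each GFAP-IL6 library was shallower than each WT library. The transgenic label was checked first: Il6 had 0, 2 and 0 counts in WT replicates 1 to 3 and 12, 10 and 24 counts in GFAP-IL6 replicates 1 to 3 (edgeR quasi-likelihood test, adjusted p = 0.00208). Gfap was 7.15-fold higher (95% interval 5.31 to 9.64). A pair of WT libraries stood apart in choroid plexus or striatal markers. WT replicate 3 had a summed level of 602 CPM (counts per 1 M counts of a library, M for mega) over 4 choroid plexus genes, against 3.14 to 58.6 in the others. WT replicate 2 had 252 CPM over 5 striatal genes, against 113 to 145. Summed oligodendrocyte genes varied in both groups. They were at 3320, 6140 and 5540 CPM in WT replicates 1 to 3 and 4360, 3360 and 5240 CPM in GFAP-IL6 replicates 1 to 3. Among the members, leaving out WT replicate 3 moved only the call of Csf1, and leaving out WT replicate 2 moved none. Leaving out WT replicate 1 moved only the call of Csf2ra.

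Of the 7 members, 5 were higher in GFAP-IL6 cortex at an adjusted p under 0.05 and 0 were lower. Over the 15341 genes tested, 2.65% were called higher and 0.209% lower. The differences were largest for both beta chain genes, intermediate for Csf3r and Csf1r, and smallest for Csf1. Il34 and Csf2ra did not pass the test. In 6 of 7 members every GFAP-IL6 library lay above every WT library, which was the case for 13.8% of all genes tested. Csf2rb, Csf2rb2 and Csf3r also had a log2 fold change over 1, the size the study required of a differentially expressed gene (DEG), against 1.36% of all genes called higher at that size. The median log2 fold change of the members was 0.87, and that of all genes tested was -0.004.

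**Figure D1:**
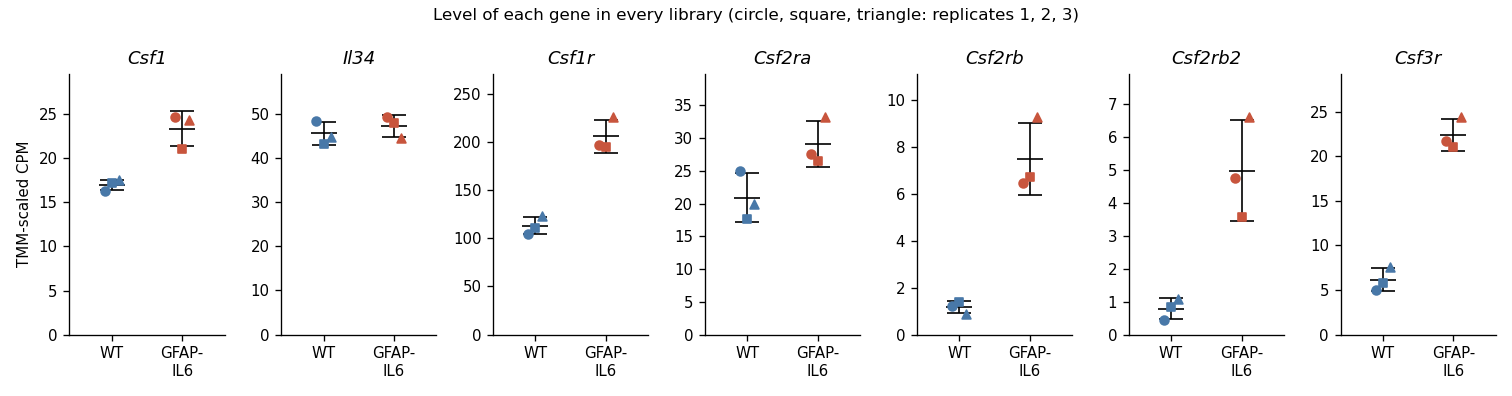
TMM-scaled CPM of the 7 genes in each of the 3 WT (blue) and 3 GFAP-IL6 (red) libraries, with the mean and SD as bars. Each axis starts at 0. The groups overlap for Il34 and are separate for the other 6 genes.

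Csf1, the macrophage CSF, was modestly higher. Its level was 16.3, 17.2 and 17.5 CPM in WT replicates 1 to 3 and 24.7, 21.1 and 24.4 CPM in GFAP-IL6 replicates 1 to 3. The WT values lay close together and all were below the lowest GFAP-IL6 value, in replicate 2. The means were 17.0 ± 0.609 CPM and 23.4 ± 1.98 CPM (SD, n = 3 each), a 1.38-fold difference (95% interval 1.18 to 1.62) with an edgeR adjusted p of 0.0319. The difference passed the threshold only narrowly. The adjusted p was 0.0805 without WT replicate 3, 0.158 without GFAP-IL6 replicate 1 and 0.175 without GFAP-IL6 replicate 3, and it was 0.0561 with DESeq2. Csf1 lies at chr3:107741048-107760469 on the minus strand (GRCm38).

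Il34, the ligand that in the forebrain is made chiefly by neurons, did not pass the test. Its level was 48.4, 43.2 and 44.8 CPM in WT replicates 1 to 3. In GFAP-IL6 replicates 1 to 3 it was 49.2, 47.8 and 44.4 CPM. The groups overlapped, with the lowest and the second-lowest values in WT replicate 2 and GFAP-IL6 replicate 3. The fold was 1.04 with a 95% interval of 0.914 to 1.18 (edgeR adjusted p = 0.747). Il34 lies at chr8:110741829-110805924 on the minus strand (GRCm38).

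The balance of the ligands that share the receptor Csf1r was compared within libraries. As a ratio of TPM (like CPM, after division of counts by gene length), Csf1 to Il34 was 0.130, 0.154 and 0.151 in WT replicates 1 to 3 and 0.194, 0.171 and 0.213 in GFAP-IL6 replicates 1 to 3. The ratio was higher in each GFAP-IL6 library than in each WT library, and Il34 was the more abundant ligand transcript in every library. The ratio is a description of each library and was given no test.

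Csf1r, the receptor for both ligands, was higher in each GFAP-IL6 library. It reached 105, 111 and 123 CPM in WT replicates 1 to 3 and 197, 195 and 226 CPM in GFAP-IL6 replicates 1 to 3. The gap between the groups was wider than the range within either. The means of 113 ± 9.01 CPM and 206 ± 17.2 CPM (SD, n = 3 each) differed 1.82-fold (95% interval 1.59 to 2.09, edgeR adjusted p = 0.00015). The gene lies on chromosome 18, from 61100598 to 61132149 on the plus strand (GRCm38). Its exons overlap those of Hmgxb3, a gene on the opposite strand, over 873 bases, or 15.1% of the exon bases of Csf1r. Whether counting used the strand of a read is not given in the sources used here. Hmgxb3 itself had 46.1 ± 3.69 CPM in WT and 49.5 ± 0.782 CPM in GFAP-IL6 (SD, n = 3 each), with a fold of 1.08 (95% interval 0.945 to 1.22) that did not pass the test (edgeR adjusted p = 0.508).

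Csf1r rose beside other genes of microglia. Of 14 microglial genes, 9 were called higher and 0 lower, with a median log2 fold change of 0.77. Their summed level was 382 to 492 CPM in WT and 709 to 820 CPM in GFAP-IL6. Itgam, the alpha chain of complement receptor 3, had the largest log2 fold change of the list at 2.03 ± 0.10 (SE). Olfml3, a secreted glycoprotein, reached 1.27 ± 0.11, Laptm5, a lysosomal membrane protein, 1.17 ± 0.09, and Trem2, a lipid-sensing receptor, 1.13 ± 0.13 on the same scale. Of the 14 genes, 12 had log2 fold changes above 0. Genes typical of resting microglia, named after their values were seen, lay on both sides of 0. Tmem119 and Cx3cr1 rose by 0.81 ± 0.12 and 0.63 ± 0.10 (log2, SE), while P2ry12 and Gpr34 had log2 fold changes of -0.27 ± 0.14 and -0.22 ± 0.20 and did not pass the test. In bulk tissue, fewer cells of a type and less RNA per cell cannot be told apart, and the same holds for more cells and more RNA per cell.

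**Figure D2:**
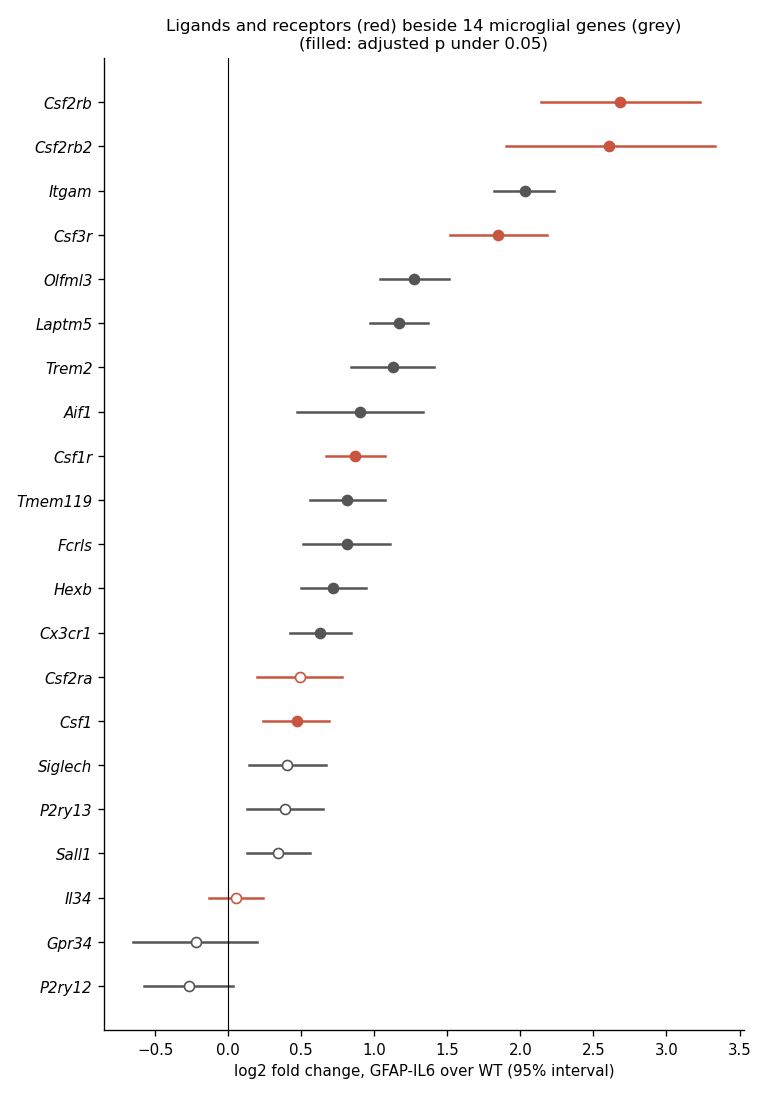
Log2 fold change of GFAP-IL6 over WT with its 95% interval for the 7 ligand and receptor genes (red) and 14 microglial genes (grey), filled where the edgeR adjusted p is under 0.05. Csf2rb and Csf2rb2 lie at the top, Csf1r lies among the microglial genes, and the interval of Il34 spans 0.

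Set against the summed TPM of the microglial genes in the same library, Csf1r gave a WT mean of 0.130 ± 0.0158 and a GFAP-IL6 mean of 0.143 ± 0.000767 (SD, n = 3 each). By library it was 0.139, 0.112 and 0.139 in WT replicates 1 to 3, and 0.143, 0.143 and 0.144 in GFAP-IL6 replicates 1 to 3. WT replicate 2, the library with the high striatal genes, was the lowest, while the other WT libraries lay just under the GFAP-IL6 range. Without length scaling the groups overlapped, at 0.275, 0.226 and 0.278 in WT against 0.272, 0.275 and 0.276 in GFAP-IL6. With Itgam, Aif1 and Laptm5, which other myeloid cells express, taken out of the list they did not, at 0.157, 0.127 and 0.158 in WT against 0.174, 0.174 and 0.175 in GFAP-IL6. The genes taken out had log2 fold changes of 2.03, 0.90 and 1.17, each above the list median of 0.77. Their removal by itself therefore raises the ratio in GFAP-IL6 relative to WT. The log2 difference of the ratio was 0.15, and it was 0.04 without WT replicate 2 and 0.25 with the shorter list.

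Csf3r, the G-CSF receptor gene, was 3.61-fold higher (95% interval 2.87 to 4.53, edgeR adjusted p = 1.6e-05). Its level was 5.05, 5.79 and 7.60 CPM in WT replicates 1 to 3 and 21.7, 21.0 and 24.4 CPM in GFAP-IL6 replicates 1 to 3. The highest WT value, in replicate 3, was far below the lowest GFAP-IL6 value. Csf3r is located at chr4:126024550-126044440 on the plus strand (GRCm38).

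Because Csf3r is widely used as a neutrophil gene, transcripts of that cell type were counted in the same libraries. Of 11 neutrophil genes 0 passed the filter on low counts, and 9 had at most 3 counts in every library. Elane, Cxcr2 and Mmp8 had 0 counts in all 6 libraries. The list summed to 18 counts over the WT libraries and 11 over the GFAP-IL6 libraries, whereas Csf3r alone had 58, 97 and 121 counts in WT replicates 1 to 3 and 242, 159 and 219 counts in GFAP-IL6 replicates 1 to 3. The ratio of the TPM of Csf3r to that of the summed microglial genes was 0.00932, 0.00812 and 0.0120 in WT and 0.0218, 0.0214 and 0.0217 in GFAP-IL6, so Csf3r was also higher per unit of microglial transcript in each GFAP-IL6 library.

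Csf2ra, the alpha chain that gives the GM-CSF receptor its specificity, did not pass the test, although its groups did not overlap. It measured 25.0, 17.7 and 20.0 CPM in WT replicates 1 to 3 and 27.6, 26.5 and 33.2 CPM in GFAP-IL6 replicates 1 to 3. WT replicate 1 lay just below the lowest GFAP-IL6 library, and the other WT libraries lay further down. The fold was 1.40 with a 95% interval of 1.15 to 1.72 (edgeR adjusted p = 0.0794). It passed when WT replicate 1 was left out (adjusted p = 0.0144) and when no low-count filter was applied (adjusted p = 0.00636). Its position is chr19:61223957-61228429 on the minus strand (GRCm38).

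Both beta chain genes were scarce in WT cortex and rose steeply. Csf2rb, the common beta chain, had 14, 23 and 14 counts in WT replicates 1 to 3 and 72, 51 and 83 counts in GFAP-IL6 replicates 1 to 3. Scaled for depth this was 1.22, 1.37 and 0.879 CPM against 6.45, 6.73 and 9.27 CPM. No GFAP-IL6 library came near the WT range, and replicate 3 was the highest. The fold was 6.42 (95% interval 4.40 to 9.38, edgeR adjusted p = 5.7e-05). Csf2rb2, the chain that serves IL-3, had 5, 14 and 17 counts in WT replicates 1 to 3 and 53, 27 and 59 counts in GFAP-IL6 replicates 1 to 3. These correspond to 0.436, 0.835 and 1.07 CPM and to 4.75, 3.57 and 6.59 CPM. The groups again stood well apart, with GFAP-IL6 replicate 2 the lowest of its group. The fold of Csf2rb2 was 6.12 (95% interval 3.72 to 10.1, edgeR adjusted p = 0.00065), and its interval contained that of Csf2rb.

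Csf2rb (chr15:78325752-78353847, plus strand, GRCm38) and Csf2rb2 (chr15:78282507-78305721, minus strand) lie 20030 bases apart and are close copies. Their coding sequences were 95.2% identical over 2628 aligned bases, with 125 differences, and the longest identical run was 242 bases. Of all stretches of 75 bases in their transcripts, 518 were shared between the genes, which was 7.15% of those of Csf2rb and 10.6% of those of Csf2rb2. A read that lies wholly within such a stretch has no unique alignment, and only uniquely aligned reads were counted. The values of near-identical copies are uncertain where reads could be split between them. A stretch of 150 coding bases from the last exon of each gene (exon 15 of 15 in Csf2rb at chr15:78348072-78348221, exon 14 of 14 in Csf2rb2 at chr15:78285230-78285379) is printed to show how few bases tell the transcripts apart, with the 5 differing bases in capitals.
Csf2rb: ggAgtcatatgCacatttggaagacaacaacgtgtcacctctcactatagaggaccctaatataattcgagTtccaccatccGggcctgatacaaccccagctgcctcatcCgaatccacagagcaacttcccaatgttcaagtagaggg
Csf2rb2: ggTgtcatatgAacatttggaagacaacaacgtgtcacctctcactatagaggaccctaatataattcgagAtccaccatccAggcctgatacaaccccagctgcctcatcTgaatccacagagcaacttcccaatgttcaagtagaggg

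The ratio of Csf2rb to Csf2rb2 did not separate the groups. As raw counts, without length scaling, it was 2.80, 1.64 and 0.824 in WT replicates 1 to 3, where both genes had few counts. It was 1.36, 1.89 and 1.41 in GFAP-IL6 replicates 1 to 3. The beta chain genes together, divided by the summed TPM of the microglial genes, gave 0.00227, 0.00231 and 0.00231 in WT replicates 1 to 3. In GFAP-IL6 replicates 1 to 3 this ratio was 0.00842, 0.00783 and 0.0105. The WT values were nearly the same, and each GFAP-IL6 value was more than 3-fold higher than each of them. The corresponding ratio of Csf2ra overlapped between groups, at 0.0875, 0.0471 and 0.0601 in WT and 0.0527, 0.0514 and 0.0558 in GFAP-IL6. The TPM of the alpha chain gene over that of both beta chain genes was 38.6, 20.4 and 26.0 in WT and 6.26, 6.56 and 5.32 in GFAP-IL6. Every WT library thus had a higher alpha to beta ratio than every GFAP-IL6 library, and no test was made of these ratios.

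**Figure D3:**
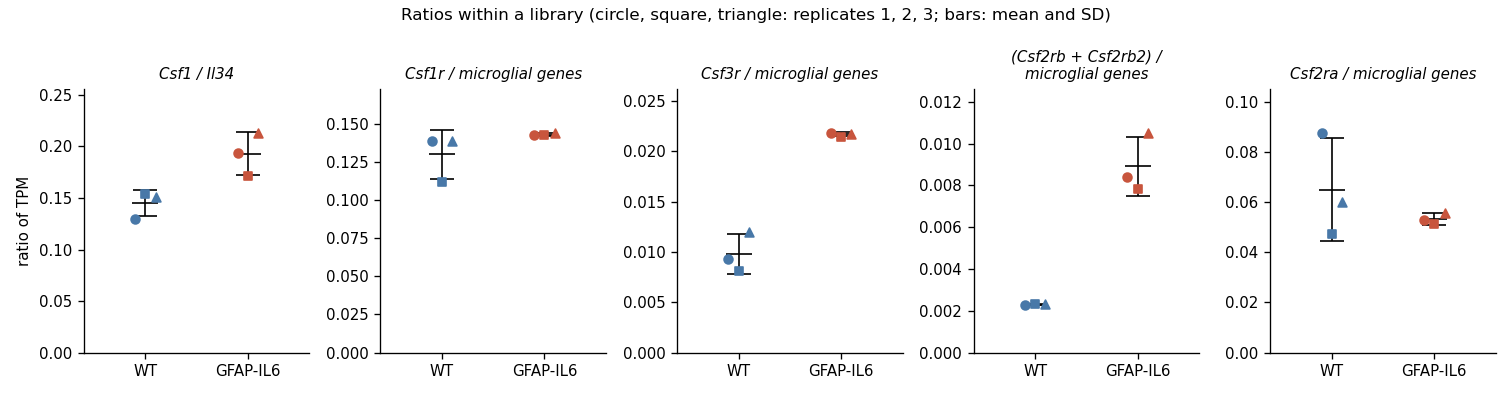
Ratios of TPM within each WT (blue) and GFAP-IL6 (red) library, with mean and SD, for Csf1 over Il34 and for 4 receptor measures over the summed TPM of 14 microglial genes. Each axis starts at 0, the beta chain and Csf3r ratios are separate between the groups, and the Csf2ra ratios overlap.

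Promoter sequence from RefSeq (GRCm38.p6) was examined for Csf1, Csf3r, Csf2rb2 and Csf2ra. Il34 and Csf2rb had no entry, and the promoter of Csf1r was not searched. The 250 bases before the gene start were searched for TTCNNNGAA, the letters of the STAT motif, which is its own reverse complement. It was found in 7.02% of 32851 promoters of the same length. Of the 4 members only Csf2rb2 held a match, TTCTGAGAA, which ended 6 bases before the start. The windows of Csf2rb2 (chr15:78305722-78305971, minus strand), with the match in capitals, and of Csf1 (chr3:107760470-107760719, minus strand), with none, are printed. Of the called members searched, these 2 have the same start in RefSeq and GENCODE. A match is a description of the letters and not a bound site.
Csf2rb2: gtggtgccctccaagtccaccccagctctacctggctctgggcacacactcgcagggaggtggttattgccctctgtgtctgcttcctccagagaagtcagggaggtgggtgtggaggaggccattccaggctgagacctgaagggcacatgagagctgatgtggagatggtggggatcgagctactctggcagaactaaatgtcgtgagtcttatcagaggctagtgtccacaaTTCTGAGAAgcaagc
Csf1: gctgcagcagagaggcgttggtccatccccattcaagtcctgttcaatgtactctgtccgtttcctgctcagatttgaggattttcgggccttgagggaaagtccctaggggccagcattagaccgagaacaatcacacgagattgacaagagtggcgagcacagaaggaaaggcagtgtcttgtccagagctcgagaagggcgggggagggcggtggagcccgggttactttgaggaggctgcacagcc

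Per length, the order of the members differed between the groups. In WT cortex Il34 (69.2 ± 6.08 TPM) and Csf1r (64.1 ± 4.95 TPM) led and did not differ beyond their spread. They were followed by Csf2ra (31.5 ± 6.51), Csf1 (9.98 ± 0.264) and Csf3r (4.86 ± 1.02), with Csf2rb (0.673 ± 0.14) and Csf2rb2 (0.467 ± 0.188) last and overlapping (TPM, SD, n = 3). In GFAP-IL6 cortex Csf1r led at 123 ± 9.99 TPM, ahead of Il34 at 75.3 ± 4.41 TPM and Csf2ra at 45.9 ± 5.51 TPM. Csf3r (18.6 ± 1.49 TPM) now stood above Csf1 (14.5 ± 1.32 TPM), with its lowest library at 17.3 TPM against 15.4 TPM in the highest of Csf1. The beta chain genes stayed last at 4.58 ± 0.928 TPM for Csf2rb and 3.14 ± 0.959 TPM for Csf2rb2, and they overlapped again.

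The remaining ligands were at or near the limit of detection. Csf2 and Il3 had 0 counts in all 6 libraries, which allows levels of up to 0.178 to 0.397 CPM depending on the library (3 counts, counting error only). Csf3 had 1 count in GFAP-IL6 replicate 1 and 0 in the others. Il5 had 4, 5 and 1 counts in WT replicates 1 to 3 and 1, 0 and 1 in GFAP-IL6 replicates 1 to 3. The IL-5 receptor gene Il5ra was also at 0 counts in every library. Of this list of 8 genes 2 were tested and 0 were called, with a median log2 fold change of 0.04. These were Il3ra, the IL-3 receptor alpha chain, at 0.11 ± 0.31 (log2 fold change, SE), and Ptprz1, a phosphatase that also binds IL-34, at -0.04 ± 0.10.

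Signalling genes of these receptors, and transcription factor genes linked to Csf1r and the myeloid lineage, were counted in 3 lists. With the other ligands and receptors they made up 59 genes, of which 50 were tested, 16 were called higher and 0 lower. Their median log2 fold change was 0.23. Of 23 tested adaptors and signalling genes of Csf1r, 9 were called higher, with a median of 0.42. Plcg2, a phospholipase, rose by 1.66 ± 0.15 (log2, SE) and Vav1, a guanine nucleotide exchange factor of blood cells, by 1.32 ± 0.18. The kinase gene Lyn rose by 0.87 ± 0.13 and Pik3cd, a leukocyte catalytic subunit of PI3 kinase, by 0.74 ± 0.09. The other 14 did not pass the test.

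Among 13 tested genes of beta chain signalling, 2 were called higher and the median was 0.17. These were Socs3, a feedback inhibitor of cytokine receptors, at 1.92 ± 0.19 and Stat3, the transcription factor activated by IL6 and G-CSF, at 0.80 ± 0.11 (log2 fold change, SE). Both also act downstream of IL6, the product of the transgene. Stat5a and Stat5b, the factors through which the beta chain acts, had log2 fold changes of 0.68 ± 0.36 and 0.21 ± 0.09, and Cish, a classic Stat5 target, 0.15 ± 0.22. None of these 3, named after their values were seen, passed the test.

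Of 12 tested transcription factor genes linked to Csf1r and the myeloid lineage, 5 were called higher, with a median log2 fold change of 0.46. Runx1 rose by 1.66 ± 0.28, Spi1, which encodes PU.1, by 1.54 ± 0.20, and Irf8 by 1.40 ± 0.17 (log2, SE). The count over all the signalling lists was 10 without GFAP-IL6 replicate 3, against 15 to 19 under every other alternative.

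**Figure D4:**
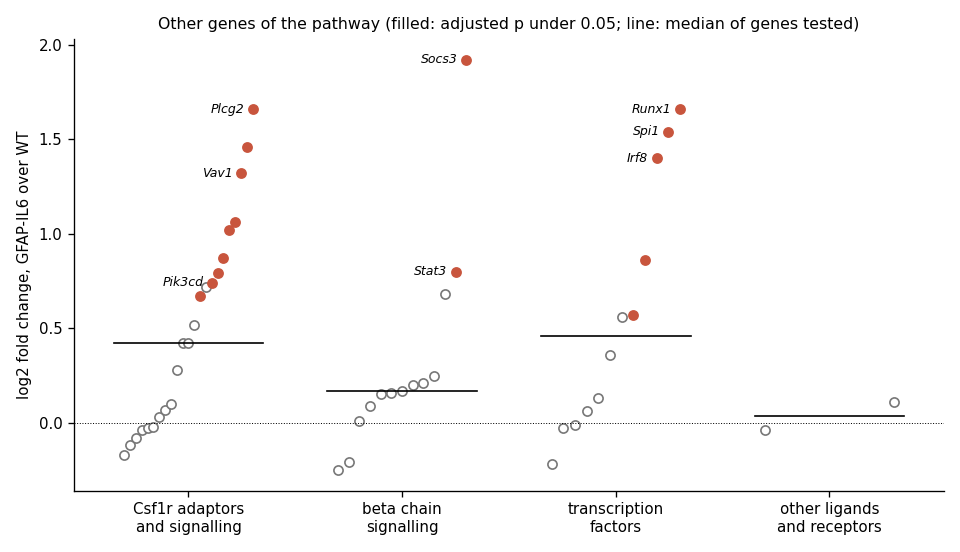
Log2 fold change of GFAP-IL6 over WT for the 50 tested genes of the 4 pathway lists, 1 point per gene, filled where the edgeR adjusted p is under 0.05, with the median of each list as a line. Filled points are above 0 in the first 3 lists, up to 3 of them are named in each, and the list of other ligands and receptors has none.

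Markers of other cells were measured beside these values. Perivascular macrophage genes had 4 of 8 tested and 0 called, with summed levels of 8.04 to 13.9 CPM in WT and 9.86 to 16.5 CPM in GFAP-IL6. Of 8 monocyte genes only Fn1, a matrix protein also made by other cells, was tested, and it was called higher at a log2 fold change of 1.03 ± 0.10 (SE). The monocyte genes summed to 39.7 to 44.2 CPM in WT and 75.8 to 97.0 CPM in GFAP-IL6. However, Fn1 alone made up 40.0 ± 2.83 and 81.5 ± 10.5 CPM of these sums (SD, n = 3 each). Of the other genes, 4 had at most 3 counts in every library. Ccr2 had 2, 11 and 8 counts in WT replicates 1 to 3 and 14, 5 and 13 in GFAP-IL6 replicates 1 to 3. Ms4a4c had 0, 2 and 0 against 4, 2 and 5. In CPM both were higher in every GFAP-IL6 library than in every WT library, while Itgal overlapped. Their counts were too low for the test. Lymphocyte genes had 0 of 8 tested, with 14 counts over the WT libraries and 29 over the GFAP-IL6 libraries, and Cd3d at 0. Scaled for depth they summed to 0.298 to 0.348 CPM in WT and 0.66 to 1.45 CPM in GFAP-IL6. All 8 had at most 3 counts in every library. Of 6 mast cell and basophil genes 1 was tested and 0 called, with Mcpt8 and Prss34 at 0.

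Among resident cells, 5 of 7 endothelial genes were called higher, with summed levels of 180 to 198 CPM in WT and 276 to 321 CPM in GFAP-IL6. Ly6c1 led at a log2 fold change of 0.98 ± 0.14, followed by the tight junction gene Cldn5 at 0.93 ± 0.14 (SE). Flt1, a VEGF receptor, reached 0.75 ± 0.10 and the transporter gene Slco1a4 0.40 ± 0.07. Of 9 astrocyte genes only Gfap was called, and 0 genes were called among 9 of neurons, 7 of oligodendrocytes, 4 of oligodendrocyte precursors (OPC), 3 tested of choroid plexus, 5 of striatum and 5 of blood. The part of the endothelial and microglial changes in the values of the members was not tested.

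Within the 6 libraries the members other than Il34 and Csf2ra followed each other closely, with Pearson's r of log2 CPM from 0.936 to 0.996. It was 0.996 between Csf1r and Csf3r, 0.988 between Csf1r and Csf2rb2, and 0.219 between Csf1r and Il34. These coefficients are descriptions over 6 libraries that fall into 2 groups and share their depth, and no p is given for them. By the same measure over all genes tested, the genes most like Csf1r were Grrp1 (0.9992), C1qc (0.9983), a subunit of complement C1q, and Spata13 (0.9980). Csf3r was most like Slco2b1 (0.9986), Setdb1 (0.9985) and Fyb (0.9978). The nearest to Csf2rb were Mylip (0.9978), Ikzf1 (0.9973) and Osmr (0.9956), and to Csf2rb2 Ascc2 (0.9966), Lyl1 (0.9964) and Pycard (0.9960). Csf1 came closest to Cd180 (0.9961), Rab32 (0.9954) and Gm17116 (0.9934), Csf2ra to Pcsk1 (0.9974), Stab1 (0.9958) and Stk10 (0.9935), and Il34 to Clasp1 (0.9932), Ing1 (0.9926) and Tmem245 (0.9919).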

How the data were processed

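Frontal cortex of 3 GFAP-IL6 and 3 WT mice was profiled with TruSeq mRNA libraries, and groups were taken from the sample titles. The authors deposited raw counts per gene with a gene length. The methods of the study give STAR alignment to mm10 and featureCounts assignment of uniquely aligned reads to GENCODE features. The submitters' processing notes name STAR 2.4 and the human build hg19, while the identifiers in the table are those of mouse genes. Strand use in counting is not given in the sources used here, and duplicate reads could not be removed.

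Counts were tested with edgeR 4.0.16 in R 4.3.3 (quasi-likelihood F-test, TMM scaling, filterByExpr, group only) with Benjamini-Hochberg adjustment over the 15341 of 33000 genes that passed, and a gene was called at an adjusted p under 0.05. CPM values are TMM-scaled, and TPM used the deposited gene lengths. Standard errors were derived from the F statistic, and the fits were tested on simulated data. No pair of libraries agreed within sampling noise. A floor of 3 counts corresponded to 0.178 to 0.397 CPM. Alternatives were RLE and upper-quartile scaling, no filter, a mean of at least 1 CPM, DESeq2 1.42.0, limma-voom (limma 3.58.1), a replicate block, thinning to 7559524 counts and leaving out each library.

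The members and the 18 gene lists were chosen with earlier results of these data known. All members are named, with up to 4 called genes of smallest adjusted p in each list, defining markers with 0 counts, and the 3 genes most like each member by Pearson's r of log2 CPM (prior count 1). A result that this rule would name among the transcription factors is not reported here. Positions, exon overlaps and the coding stretches come from GENCODE M21 on GRCm38 (the assembly of mm10), and promoters from RefSeq.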

Additional observations from a re-analysis of the deposited data

How the results depend on the processing

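The log2 fold changes of Csf1r, Csf2rb, Csf2rb2, Csf3r and Il34 kept their direction and their side of the threshold in all 14 alternatives, with ranges of 0.80 to 0.93, 2.51 to 2.85, 2.37 to 2.89, 1.75 to 2.03 and 0.02 to 0.10. Csf1 lost its call in 5 alternatives. Its log2 fold change was 0.46 with DESeq2 (adjusted p = 0.0561) and 0.46 after thinning to the smallest library (edgeR adjusted p = 0.056). It was 0.485 without WT replicate 3, 0.426 without GFAP-IL6 replicate 1 and 0.44 without GFAP-IL6 replicate 3, the other losses. Over all fits with 1 library left out, called or not, the range was 0.43 to 0.53. Csf2ra gained a call in 3, at 0.48 without a low-count filter, 0.48 with the replicate block and 0.63 without WT replicate 1. With any other library left out, Csf2ra was at 0.38 to 0.54 and stayed uncalled. The causes were not tested.

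The genes called over the whole table numbered 439, against 1154 without the filter, and 187 (without GFAP-IL6 replicate 3) to 1061 (without WT replicate 1) when 1 library was left out. Called genes of the signalling lists numbered 16, and 10 to 18 when 1 library was left out. The log2 difference of the ratio of Csf1 to Il34 was 0.41, with a range of 0.33 to 0.49. That of Csf1r to the microglial genes was 0.15, and 0.04 (without WT replicate 2) to 0.25 (with the shorter list).

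The replicate numbers were not treated as pairs, since the deviations of same-numbered libraries had correlations of 0.095, 0.013 and 0.017, and not every library correlated best with its own number. With the replicate block, 750 genes were called, Csf2ra passed at a log2 fold change of 0.48 (adjusted p = 0.0428), and no other member changed its call. Depth limits what can be said of Csf2, Il3 and Csf3 to the floor of 3 counts, and the beta chain genes rest on 5 to 23 counts in each WT library.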
